A study of Arabidopsis thaliana with 39 samples.

Results

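Small RNAs of the *ncb-4* mutant were compared with those of the wild type, over the 6 libraries labelled *ncb-4* or Col-0 (1) among the 39 libraries of the study. The 3 *ncb-4* libraries are from plants mutated in the gene of coilin, and the 3 Col-0 (1) libraries are from the wild-type accession of the same experimental set. Both groups were whole 14 day-old *Arabidopsis thaliana* seedlings grown on MS medium in long days, and they differ by genotype only as far as the labels say. The study measured small RNAs in mutants of mRNA maturation and surveillance factors to ask which of them make more siRNAs from genes. The set also holds *lsm1a lsm1b*, a double mutant of a 5′–3′ decay factor, and *upf1-5* and *upf3-1*, mutants of nonsense-mediated decay, each with 3 libraries of the same age and medium. Col-0 (2), the wild type of another set of 14 day-old seedlings on MS, gave 3 further libraries. *ncb-4* was a single line, so its genotype and the history of that line cannot be told apart.

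Coilin is the scaffold protein of Cajal bodies, the nuclear bodies in which small nuclear RNAs (snRNAs, the RNA parts of the spliceosome) and small nucleolar RNAs (snoRNAs, the guides of rRNA modification) mature with their proteins. Plants without coilin lack visible Cajal bodies and still grow. Plant siRNAs come from double-stranded RNA cut by Dicer-like enzymes, and those of transposons direct DNA methylation. Reads of all lengths were counted together on each gene, so a count can hold siRNAs as well as fragments of an mRNA, tRNA, snRNA or snoRNA, and it is not a level of the intact RNA.

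Between 6437260 and 7562526 counts fell on genes in the *ncb-4* libraries (median 7150805) and between 7669447 and 7968503 in Col-0 (1) (median 7683118). Of all counts, 5.30% to 5.97% in *ncb-4* and 6.04% to 6.62% in Col-0 (1) were left out as ambiguous between overlapping genes. Reads that did not align were 12.5% to 14.1% of the counts in *ncb-4* and 10.8% to 12.4% in Col-0 (1). The gene of coilin, *AT1G13030* (chr1:4444043-4447412), had 5, 5 and 7 counts in *ncb-4* against 0, 0 and 1 in Col-0 (1) and was below the filter on low counts. Small RNA counts do not check the mutation. Of the 65 genes of photosystem, antenna and Rubisco proteins, which mark green tissue, 49 passed the filter. In whole seedlings, fewer cells of a type and less RNA per cell cannot be told apart.

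The small RNAs of *ncb-4* differed from those of Col-0 (1) by more genes down than up. Of 9432 genes tested in edgeR, 316 were up (3.35% of the genes tested) and 686 down (7.27%). A gene was called where the adjusted p-value was below 0.05 and the log2 fold change was above 1 or below -1. Protein-coding genes took most of the calls, and pseudogenes and transposable elements were nearly all on the up side. Of the genes up, 315 had all 3 *ncb-4* libraries above all 3 Col-0 (1) libraries in raw counts per 1000000 counts on genes (cpm), and of the genes down 423 had all 3 below. Over all genes tested, 53.8% had all 3 above and 4.86% all 3 below in cpm. The direction of a small change depended on the scaling. TMM scaling, which sets the typical gene to no change, gave a median log2 fold change of -0.02 over all genes tested. Scaling by the reads sequenced per library, as the study's depth table gives them, moved this median by 0.55 to 0.54. It then called 1833 genes up (19.4%) and 239 down (2.53%). All 316 genes up stayed up, and 239 of the 686 genes down stayed down, with 0 changes of sign. Values below are on the TMM scale, in normalized counts per 1000000 (RPM), and a gene is said to hold under both scalings where both called it.

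By class, 183 of 5132 protein-coding genes were up (3.57%) and 612 down (11.9%), with a median log2 fold change of -0.24. Of 3407 pseudogenes and transposable elements, 106 were up (3.11%) and 7 down (0.205%), with a median of 0.20. Among 144 snoRNA genes tested, 43 were down and 0 up, with a median of -0.75. Of 23 snRNA genes, 5 were down and 0 up, with a median of -0.49. Other non-coding RNA genes were split evenly, with 8 up and 7 down of 194. The 286 tRNA genes gave 15 up and 8 down, the 243 organelle genes 4 and 4, and the 3 rRNA genes tested 0 and 0. Under the scaling by reads sequenced the medians of protein-coding genes (0.31), tRNA genes (0.43), organelle genes (0.25) and snRNA genes (0.07) changed sign, while snoRNA genes stayed below 0 (-0.21) and pseudogenes and transposable elements above 0 (0.76). Relative to all genes tested, the median of snoRNA genes was -0.74 under both scalings and that of pseudogenes and transposable elements 0.22 under both.

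**Figure D1:**
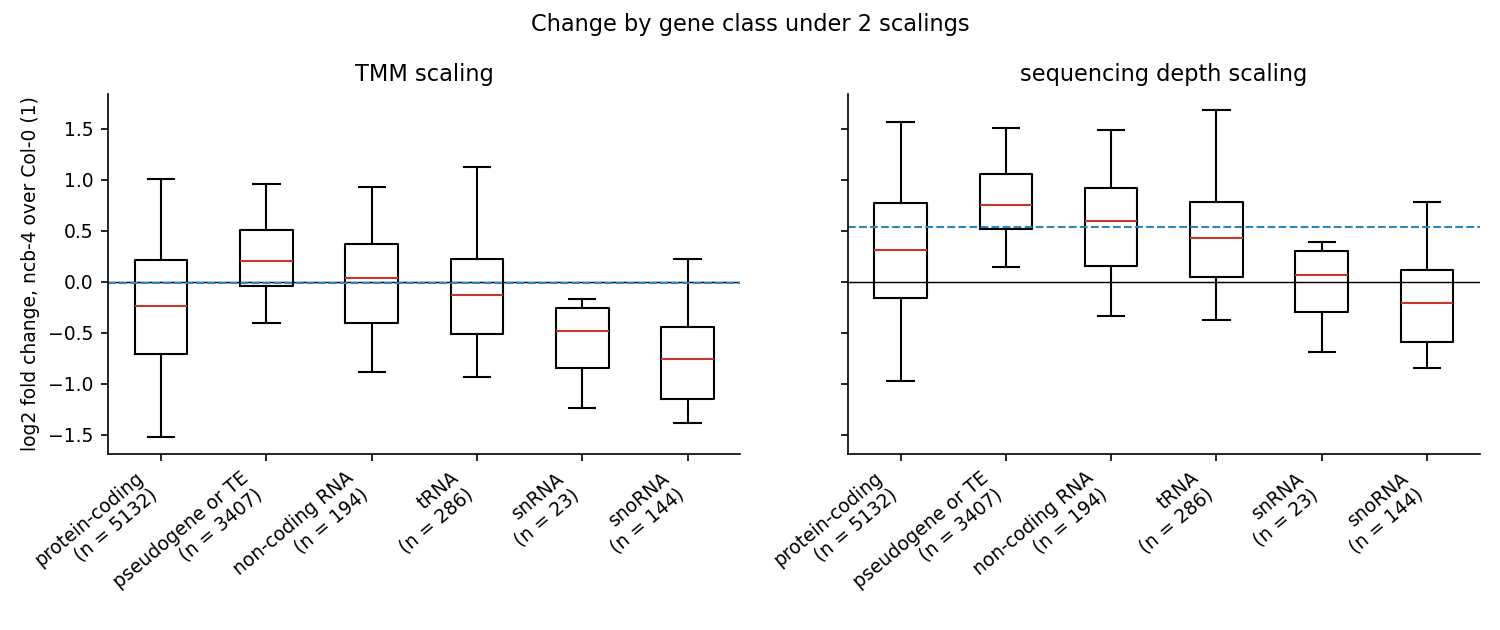
Log2 fold changes of the genes tested in *ncb-4* over Col-0 (1), by gene class, on the TMM scale (left) and scaled by reads sequenced (right). Boxes span the middle quartiles with the median in red, whiskers reach from percentile 5 to 95, the solid line is at 0 and the dashed line is the median of all genes tested (-0.02 and 0.54), and the snoRNA and snRNA boxes lie below the dashed line in both panels.

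As shares of the counts on genes, pseudogenes and transposable elements took 5.80%, 6.33% and 6.58% in *ncb-4* and 3.28%, 3.45% and 3.55% in Col-0 (1). The means were 6.24% ± 0.394 and 3.43% ± 0.141 (SD, n = 3 each), a ratio of 1.82, and the groups did not overlap. The 9 libraries of the other mutants ranged from 5.11% to 7.79% and overlapped with *ncb-4*, and those of Col-0 (2) from 2.40% to 3.46%. Protein-coding genes took 8.38% ± 0.497 in *ncb-4* and 6.87% ± 0.437 in Col-0 (1), and tRNA genes 5.85% ± 0.393 and 4.19% ± 0.382 (SD, n = 3 each), both without overlap. A two-sided exact permutation test gave p = 0.1 for each of these classes, which is the smallest p that 3 against 3 libraries allow. Col-0 (2) had 6.38% to 7.38% on protein-coding genes, below *ncb-4*. On tRNA genes Col-0 (2) had 5.15% to 5.77% and overlapped with *ncb-4* (5.41% to 6.17%). The higher tRNA share was therefore not found against every wild type.

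The snoRNA share was 0.222%, 0.216% and 0.203% in *ncb-4* against 0.321%, 0.250% and 0.240% in Col-0 (1). All 3 *ncb-4* libraries were below all 3 of Col-0 (1), with means of 0.213% ± 0.00977 and 0.271% ± 0.0442 (SD, n = 3 each, exact p = 0.1). The 9 libraries of the other mutants were higher than *ncb-4*, from 0.258% to 0.433% (exact permutation p = 0.0091, adjusted 0.0485 over the 8 classes). Col-0 (2) had 0.198%, 0.212% and 0.263% and overlapped with *ncb-4*, so the low share was not found against every wild type. tRNA genes took a higher share in *ncb-4* than in the other mutants (3.96% to 5.58%, exact p = 0.0182, adjusted 0.0485), with overlap. The share on other non-coding RNA genes was lower than in those mutants (1.06% against 1.38%, exact p = 0.0182, adjusted 0.0485), while it was 0.948% in Col-0 (1). The tests against the other mutants treat their 9 libraries as exchangeable, although they are 3 genotypes with 3 libraries each. Their p-values therefore do not measure the spread between genotypes.

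**Figure D2:**
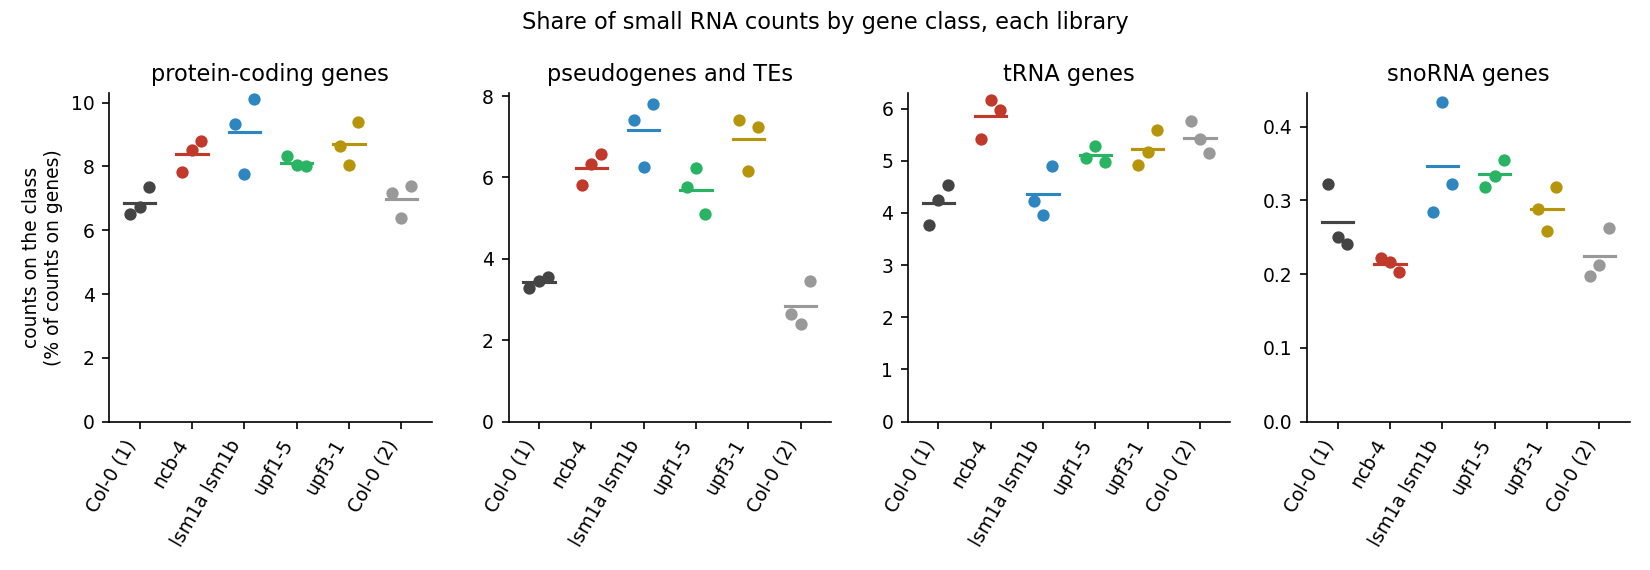
Share of the counts on genes that fell on 4 gene classes, in percent, per library of Col-0 (1), *ncb-4*, the other 3 mutants of the set and Col-0 (2). Points are libraries and bars group means. The *ncb-4* libraries have 5.80% to 6.58% on pseudogenes and transposable elements (TEs), above Col-0 (1) and within the range of the other mutants, and 0.203% to 0.222% on snoRNA genes, below both but within the range of Col-0 (2).

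The calls among the RNAs that mature in Cajal bodies were all on the down side in *ncb-4* on the TMM scale. All 43 snoRNA genes called and all 5 snRNA genes called were down, and 125 of the 144 snoRNA genes tested and 21 of the 23 snRNA genes had a log2 fold change below 0. The snRNA result depended on the scaling. As a share of the counts on genes, snRNA genes took 0.0762%, 0.0815% and 0.0755% in *ncb-4* against 0.0738%, 0.0675% and 0.0740% in Col-0 (1), higher in all 3 *ncb-4* libraries (ratio 1.08, exact permutation p = 0.1). In cpm, 3 of the 23 genes were below Col-0 (1) in all libraries and 8 above. The other mutants, compared with the same Col-0 (1) libraries, had 5 of 24 snRNA genes down in *lsm1a lsm1b* (median 0.03), 1 of 23 in *upf1-5* (-0.20) and 5 of 23 in *upf3-1* (-0.60), beside 5 of 23 and -0.49 in *ncb-4*. Against the other 3 mutants, 0 of 24 were called in *ncb-4*. The snRNAs called were U12, which binds the branch site of the rare U12-type introns, and 4 of the 7 tested genes of U2, which binds the branch site of all other introns. U12 and a U2 gene are shown because they carry the strongest snRNA changes. Both are from RefSeq on TAIR10.1, and the capitals mark letters searched on both strands of the 82 snRNA genes. For U12 (chr1:22603121-22603295, plus strand) they mark GTAAGGA, the letters that pair with the branch site, found in 2 of the 82 genes (2.44%). For U2.6 (part of the gene, chr3:21004416-21004599, plus strand) they mark TCCCACATC, from the upstream sequence element of plant snRNA promoters, found in 7 genes (8.54%), and GTAGTA, which pairs with the branch site, found in 14 (17.1%), with 0 on the other strand.
U12: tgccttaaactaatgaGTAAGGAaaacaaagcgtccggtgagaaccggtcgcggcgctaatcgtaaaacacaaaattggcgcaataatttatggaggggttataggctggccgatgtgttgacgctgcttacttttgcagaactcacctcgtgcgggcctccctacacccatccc
U2.6: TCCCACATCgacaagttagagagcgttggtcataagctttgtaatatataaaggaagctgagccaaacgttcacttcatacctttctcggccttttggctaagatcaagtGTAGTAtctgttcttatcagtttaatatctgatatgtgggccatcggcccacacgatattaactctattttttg

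*U12* (*AT1G61275*) had 250, 233 and 179 counts in *ncb-4* and 632, 407 and 431 in Col-0 (1). The groups did not overlap, and the log2 fold change was -1.66 ± 0.16 (SE, with adjusted p = 2.68e-07), or 3.17-fold lower, and held under both scalings. The other mutants ranged from 251 to 735 counts and overlapped with *ncb-4*, but the difference from them was also below 0 (-0.76, adjusted p = 0.0187). *U2.6* (*AT3G56705*) had 220, 227 and 169 counts against 445, 265 and 310, a log2 fold change of -1.24 ± 0.16 (adjusted p = 1.34e-05), and *U2.7*, *U2.2* and *U2.3* fell by 1.24, 1.11 and 1.08 on the log2 scale. Without replicate 3 of *ncb-4*, *U2.2* (*AT3G57645*) and *U2.3* (*AT3G57765*) were at -0.94 and -0.91, under the threshold of size, as was *U2.3* without replicate 1 of Col-0 (1) (-0.99). The median of the 7 U2 genes was -1.08, and none of the 4 U2 calls held under scaling by reads sequenced. Of the other spliceosomal RNAs, 0 of 3 U1, 0 of 4 U4, 0 of 2 U5, 0 of 5 U6 genes and the U4atac gene were called.

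The snoRNA genes called down were C/D guides, which direct 2′-O-methylation of rRNA, as well as others without these letters. Shown are 5 of them with many counts, chosen after their values were seen, from RefSeq on TAIR10.1. Capitals mark box C (TGATGA) in the first 30 bases and box D (CTGA) in the last 20, the sequences bound by the core proteins of C/D particles. TGATGA is found anywhere in the transcribed strand of 143 of the 287 snoRNA genes (49.8%, and in 3.48% on the other strand) and CTGA in 234 (81.5%, and in 36.9% on the other strand). AtU61 (chr2:14894875-14894956, minus strand) and AtU33b (chr1:10309011-10309092, plus strand) show no TGATGA there. AtsnoR34 is at chr1:5686093-5686179 (minus strand), AtsnoR23-1 at chr3:7682639-7682749 (plus strand) and AtsnoR29-1 at chr5:20795723-20795828 (plus strand).
AtU61: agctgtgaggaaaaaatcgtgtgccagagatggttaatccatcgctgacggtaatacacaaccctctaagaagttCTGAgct
AtU33b: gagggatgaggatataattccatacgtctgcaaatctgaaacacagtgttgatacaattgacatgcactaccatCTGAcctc
AtsnoR34: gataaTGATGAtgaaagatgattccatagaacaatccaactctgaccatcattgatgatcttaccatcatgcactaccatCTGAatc
AtsnoR23-1: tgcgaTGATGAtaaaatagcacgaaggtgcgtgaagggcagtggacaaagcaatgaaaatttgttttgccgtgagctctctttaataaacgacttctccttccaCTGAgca
AtsnoR29-1: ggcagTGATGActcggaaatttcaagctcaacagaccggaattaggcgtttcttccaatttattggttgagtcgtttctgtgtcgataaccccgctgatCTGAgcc

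AtU33b (*AT1G06273*) had 196, 184 and 217 counts in *ncb-4* against 324, 342 and 396 in Col-0 (1), a log2 fold change of -1.34 ± 0.14 (SE, with adjusted p = 1.04e-06). AtsnoR34 (*AT1G05247*) had 732, 622 and 636 counts against 1079, 956 and 953 (-1.10 ± 0.13, adjusted p = 5.39e-06). In both, all *ncb-4* libraries were below all Col-0 (1) libraries in counts. AtU61 (*AT2G08725*) had 523, 467 and 350 counts against 1212, 584 and 752 (-1.44), AtsnoR29-1 (*AT5G07725*) 300, 244 and 233 against 650, 336 and 443 (-1.39), and AtsnoR23-1 (*AT3G04165*) 703, 541 and 423 against 1225, 907 and 792 (-1.32). In these 3 genes replicate 1 of Col-0 (1) had the highest count. The largest change was in AtsnoR134-3 (*AT4G04485*), with 8, 7 and 5 counts against 26, 21 and 19 (-2.21 ± 0.38, adjusted p = 0.000285), which held under both scalings. *U3B* and *U3D*, genes of the U3 snoRNA of rRNA processing, were down by 1.06 and 1.23 on the log2 scale, but 28.5% and 62.3% of their bases overlap another gene.

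The share called was similar with and without the box letters. Of 78 tested genes with both the C and the D letters, 24 were down (30.8%, median -0.75). Of 14 tested genes with ACA before the last 3 bases, the mark of the guides of pseudouridylation, 4 were down (28.6%, median -0.73), and of 52 with neither, 15 were down (28.8%, median -0.77). The count of 43 depended on the scaling and on 1 library. Only 2 snoRNA genes were down and 4 up under scaling by reads sequenced, and 28 were down without replicate 1 of Col-0 (1). In cpm, before any scaling, 25 of the 144 genes had all *ncb-4* libraries below all Col-0 (1) libraries and 13 had all above, against 4.86% below and 53.8% above over all genes tested. Against the other 3 mutants, 8 of 162 snoRNA genes were lower (4.94%) and 0 higher, with a median of -0.50, where 3.01% of all genes tested were higher and 2.00% lower. Each of these mutants shares the Col-0 (1) libraries, and against them the snoRNA medians were -0.11 in *lsm1a lsm1b*, -0.19 in *upf1-5* and -0.36 in *upf3-1*, with 3, 0 and 11 genes down. Against Col-0 (2), the median in *ncb-4* was -0.79, with 52 genes down (34.9%) and 3 up of 149. Over all genes tested there, 11.7% were down and 6.58% up. The genes called were largely others: of the 43 snoRNA genes down, 15 had the same call against Col-0 (2). Only 5 of the 43 had it against the other 3 mutants. AtU33b was under the threshold of size against Col-0 (2) (-0.77).

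Among the tRNA genes, 15 calls up fell on 2 acceptors. Of 10 tested genes of tRNA-Asp, 8 were up and 1 down, and of 10 of tRNA-His, 7 were up. The genes are shown with the anticodon in capitals, from RefSeq on TAIR10.1, because many genes share them. The tRNA-Asp of *AT1G75070* (chr1:28184532-28184603, plus strand) has the same letters as 21 genes in all, of which 8 were called up, and the tRNA-His of *AT1G07760* (chr1:2406834-2406905, minus strand) the same as 6 genes, all 6 up.
tRNA-Asp: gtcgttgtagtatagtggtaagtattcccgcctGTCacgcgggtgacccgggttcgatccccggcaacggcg
tRNA-His: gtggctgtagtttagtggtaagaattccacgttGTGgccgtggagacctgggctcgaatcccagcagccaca

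*AT1G07760* had 1670, 3744 and 1289 counts in *ncb-4* against 759, 710 and 669 in Col-0 (1), a log2 fold change of 1.12 ± 0.24 (SE, with adjusted p = 0.00184). *AT1G02600*, with the same letters, had 1306, 3285 and 903 counts against 424, 173 and 162 (2.33 ± 0.35, adjusted p = 5.56e-05). In both, replicate 2 of *ncb-4* was far above the other replicates, and replicate 2 of *lsm1a lsm1b* was also high, with 1795 and 1600 counts. Without replicate 2 of *ncb-4*, *AT1G07760* was 0.56 higher (adjusted p = 0.0203) and 6 of the 7 tRNA-His calls were lost, while that of *AT1G02600* was kept. *AT1G75070* had 22, 29 and 14 counts against 5, 0 and 2 (2.65 ± 0.59, adjusted p = 0.00269), and the other mutants, with 5 to 44, overlapped with *ncb-4*. A read that fits up to 10 places was counted at each, so identical tRNA genes are not independent measurements. Reads that fit more places were left out. The letters of *AT1G75070* are shared by 21 genes in all, so reads wholly within them were not counted. The 10 tested tRNA-Asp genes had only 6 distinct sets of counts. Of the 8 tRNA genes down, 5 were of tRNA-Gly. Against Col-0 (2), 17 of 305 tRNA genes were up in *ncb-4* (5.57%) and 57 down (18.7%), with a median of -0.59. Over all genes tested there, 6.58% were up and 11.7% down. Of the 15 tRNA genes up, 9 had the same call against Col-0 (2). In Col-0 (2) against Col-0 (1), 41 of 277 tRNA genes were up (14.8%) and 1 down, beside 1.67% up of all genes tested.

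Of the 106 pseudogenes and transposable elements up, 20, 18, 23, 32 and 13 lay on chromosomes 1 to 5. Their changes were small, with a median log2 fold change of 1.18. In cpm, 2759 of the 3407 tested (81.0%) had all *ncb-4* libraries above all Col-0 (1) libraries and 6 all below, where 53.8% of all genes tested were all above. The other mutants were compared with the same Col-0 (1) libraries, and their medians were 0.26 in *lsm1a lsm1b*, 0.16 in *upf1-5* and 0.31 in *upf3-1*, beside 0.20 in *ncb-4*. Of the 106 genes up in *ncb-4*, 4 were also higher than in the other 3 mutants. The count of genes up was 338 against Col-0 (2) and 970 under scaling by reads sequenced.

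The pseudogene *AT4G03824* (chr4:1782462-1783625) had 27, 22 and 17 counts in *ncb-4* against 1, 2 and 0 in Col-0 (1), a ratio of 15.4 (95% counting interval 5.05 to 76.7, adjusted p = 0.000155). It had 0 counts in all 3 *upf3-1* libraries and 11 to 20 in *lsm1a lsm1b*. *AT4G03680*, *AT5G32162* and *AT2G12560* followed, 5.76-fold, 4.62-fold and 4.55-fold higher with 9 to 21 counts in *ncb-4*, but none of them was called against the other mutants or Col-0 (2). The calls of *AT4G03680* and *AT2G12560* were lost without any one of 5 of the 6 libraries (adjusted p up to 0.134 and 0.148). On the down side, *AT1G64035*, a pseudogene of a serpin protease inhibitor, had 3, 3 and 1 counts against 16, 27 and 32 (-3.86 ± 0.50, adjusted p = 1.11e-05). *AT2G32291* had 34, 35 and 30 counts against 80, 71 and 67 (-1.65 ± 0.20), and *AT1G58889* and *AT1G59265*, which have the same counts in all 6 libraries, 81, 99 and 95 against 170, 139 and 174 (-1.32 ± 0.15). *AT1G64035* and *AT2G32291* held under both scalings.

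Of the 10 protein-coding genes named for the largest changes down in *ncb-4*, 5 are on a list of genes of amino acid breakdown and of the response to darkness and low sugar (*BCAT-2*, *ASN1*, *THA1*, *MCCA* and *BGAL4*), and the other 5 are not. The list holds 24 genes known to rise in the dark or in sugar starvation and was chosen after the values were seen. It had 18 down and 0 up among 20 tested, with a median log2 fold change of -2.66. Over all protein-coding genes tested, 612 of 5132 were down (11.9%), with a median of -0.24. Because the list was chosen with its values known, this contrast describes the 24 genes and is not a test of them. Of these genes, 17 were down under scaling by reads sequenced (median -2.11) and 19 against Col-0 (2). Against the other 3 mutants, 15 were lower and 1 higher, with a median of -1.52.

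*ASN1* (*AT3G47340*), a dark-induced asparagine synthetase, had 31, 30 and 37 counts in *ncb-4* against 694, 432 and 565 in Col-0 (1). The groups did not overlap, with means of 3.74 ± 0.626 and 91.4 ± 19.6 RPM (SD, n = 3 each). The log2 fold change was -4.61 ± 0.19 (SE, with adjusted p = 5.88e-13), or 24.4-fold lower. The counts were 445, 383 and 459 in *lsm1a lsm1b*, 220, 132 and 181 in *upf1-5* and 188, 184 and 123 in *upf3-1*, so all 9 were above all of *ncb-4* (-2.75, adjusted p = 5.99e-12). *BCAT-2* (*AT1G10070*), a transaminase that starts branched-chain amino acid breakdown, had 1, 0 and 0 counts against 64, 54 and 55, a ratio of 247 (95% counting interval 43.7 to 9801). It had 12 to 45 counts in the other mutants. *SEN1* (*AT4G35770*), a marker of senescence and darkness, had 86, 66 and 86 counts against 512, 503 and 545 (-3.22 ± 0.15, adjusted p = 4.38e-12) and 138 to 273 in the other mutants.

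The next steps of branched-chain amino acid breakdown were down as well. *MCCA*, a subunit of methylcrotonyl-CoA carboxylase, had 5, 6 and 10 counts against 125, 79 and 81 (-4.24 ± 0.29, adjusted p = 1.88e-09). *MCCB*, its other subunit, fell by 2.69 on the log2 scale, *IVD*, isovaleryl-CoA dehydrogenase, by 2.16, and the branched-chain keto acid dehydrogenase subunits *BCE2* (DIN3) and *DIN4* were 5.76-fold and 6.27-fold lower. Enzymes of other amino acids were also on the list. *THA1*, a threonine aldolase, had 1, 4 and 4 counts against 53, 42 and 52 (-4.47 ± 0.38, adjusted p = 3.40e-08). The glutamate dehydrogenases *GDH1* (7, 15 and 16 counts against 108, 56 and 82) and *GDH2* fell by 3.19 and 2.18, and *ERD5*, the proline dehydrogenase PRODH1, by 2.42.

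Sugar-related members were lower by similar sizes. *BGAL4*, a beta-galactosidase, had 22, 25 and 16 counts against 292, 217 and 224 (-4.04 ± 0.19, adjusted p = 3.64e-12), and *DIN10*, of the raffinose synthase family, 145, 147 and 117 against 965, 673 and 784 (-3.08 ± 0.16, adjusted p = 8.38e-12). No library of *ncb-4* reached the Col-0 (1) range in either. *DYL1* (DRM1), a dormancy-associated gene, fell by 2.72, and the trehalose-phosphate synthase family members *TPS8*, *TPS9* and *TPS11* by 1.55, 2.01 and 2.50. The 2 tested members not called were *TPS10* (-0.97, adjusted p = 0.0164) and *DIN2*, a beta-glucosidase, which had 57, 47 and 35 counts against 25, 26 and 26 (0.34, adjusted p = 0.359).

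Clock genes made up another group, also chosen after their values were seen. *CCA1* and *LHY*, the pair of related MYB factors that peak at dawn and repress evening genes, were up. *LHY* had 26, 35 and 22 counts in *ncb-4* against 1, 3 and 2 in Col-0 (1), a log2 fold change of 3.21 ± 0.50 (SE, with adjusted p = 9.11e-05). *CCA1* had 10, 14 and 12 counts against 0, 0 and 1, a ratio of 25.2 (95% counting interval 4.25 to 1024, adjusted p = 0.00109). *LHY* had at most 5 counts and *CCA1* at most 4 in any library of the other mutants and of Col-0 (2), below every *ncb-4* library. Of the 8 genes listed as morning-phased, 4 were tested. *PRR7*, a pseudo-response regulator of the morning, was down, with 4, 6 and 15 counts against 43, 40 and 19 (-2.51 ± 0.42, adjusted p = 0.000201), and *LNK2* was not called (-0.36).

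Of 11 evening-phased clock genes, 9 were tested, and 7 were down and 0 up, with a median log2 fold change of -1.94. Over all protein-coding genes tested, 11.9% were down, with a median of -0.24. Both clock lists were chosen with their values known, so their counts describe the genes listed and are not a test of them. *TOC1*, the evening repressor of *CCA1* and *LHY*, had 11, 9 and 16 counts in *ncb-4* against 30, 33 and 27 in Col-0 (1) (-1.82 ± 0.33, adjusted p = 0.000407). *PCL1* (LUX), part of the evening complex, had 4, 8 and 7 against 37, 23 and 20 (-2.55 ± 0.40, adjusted p = 9.71e-05). *AT4G33980* (COR28) had 2, 3 and 1 against 25, 20 and 20 (-3.85 ± 0.49, adjusted p = 9.23e-06), and *COR27*, its relative, 3, 3 and 0 against 27, 11 and 16 (-3.59 ± 0.60, adjusted p = 0.000176). In these genes no *ncb-4* library reached the Col-0 (1) range. *PRR5*, *FKF1* and *GI* fell by 2.36, 1.94 and 1.72 on the log2 scale, and *ELF3* (-1.14) and *ZTL* (-0.30) were not called. All 7 genes down held under both scalings.

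Of the 9 evening genes tested against Col-0 (1), 2 were lower in *ncb-4* than in the other mutants and 1 higher, with a median log2 fold change of -0.50. Over the protein-coding genes tested there, 2.95% were lower, with a median of -0.01. *GI* had 32, 15 and 14 counts in *ncb-4*, 8, 3 and 6 in *upf1-5* and 3, 5 and 4 in *upf3-1*. *PRR5* had 4, 6 and 6 in *ncb-4*, at most 3 in the *upf1-5* and *upf3-1* libraries and 21 to 28 in *lsm1a lsm1b*. *GI* and *PRR5* were thus at least as low in both *upf* mutants as in *ncb-4*. *LHY* was higher in *ncb-4* than in the other mutants (3.82, adjusted p = 2.68e-08), and *CCA1* was below the filter in that fit. Of the 4 morning genes tested against Col-0 (1), 2 were higher than in the other mutants and 0 lower. Against Col-0 (2), 2 of the 8 morning genes listed were up and 2 down, and of the 11 evening genes 0 and 5. Over the protein-coding genes tested against Col-0 (2), 4.83% were up and 18.3% down. The hour of harvest is not given in the sources used here.

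The evening element, AAAATATCT, is a promoter motif bound by CCA1 and LHY. It was searched on both strands from 250 bases before to 50 bases after the start of each protein-coding gene, in RefSeq promoters of TAIR10.1. It was found in 773 of 27444 promoters (2.82%), in 186 of the 5132 genes tested (3.62%), in 55 of the 612 genes down (8.99%) and in 2 of the 183 genes up (1.09%). Of the 11 evening-phased genes, 6 had it, among them FKF1, LUX, COR28, PRR5 and TOC1, and all 6 were down. Of the 8 morning-phased genes 1 had it, and of the 24 genes of sugar starvation 0. These lists were chosen after the values were seen, so their numbers describe the genes listed and are not a test. Whether the motif bears on the counts was not tested. The promoters of 2 evening genes with the motif are shown with it in capitals, as AAAATATCT or, on the other strand, AGATATTTT. TOC1 is at chr5:24674713-24675012 (plus strand) and COR28 at chr4:16285180-16285479 (minus strand). A match describes the letters and is not a measured site.
TOC1: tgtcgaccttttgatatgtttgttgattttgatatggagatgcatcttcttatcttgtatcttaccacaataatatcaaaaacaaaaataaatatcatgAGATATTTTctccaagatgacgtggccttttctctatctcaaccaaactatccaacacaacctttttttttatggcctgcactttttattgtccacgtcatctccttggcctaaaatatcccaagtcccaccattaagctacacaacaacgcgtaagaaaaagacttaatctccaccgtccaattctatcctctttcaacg
COR28: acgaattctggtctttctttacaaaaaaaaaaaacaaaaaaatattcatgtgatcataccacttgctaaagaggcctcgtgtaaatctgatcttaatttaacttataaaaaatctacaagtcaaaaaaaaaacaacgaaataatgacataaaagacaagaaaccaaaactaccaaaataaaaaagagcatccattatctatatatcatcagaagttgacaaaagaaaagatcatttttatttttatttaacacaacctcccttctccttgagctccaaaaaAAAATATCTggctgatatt

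**Figure D3:**
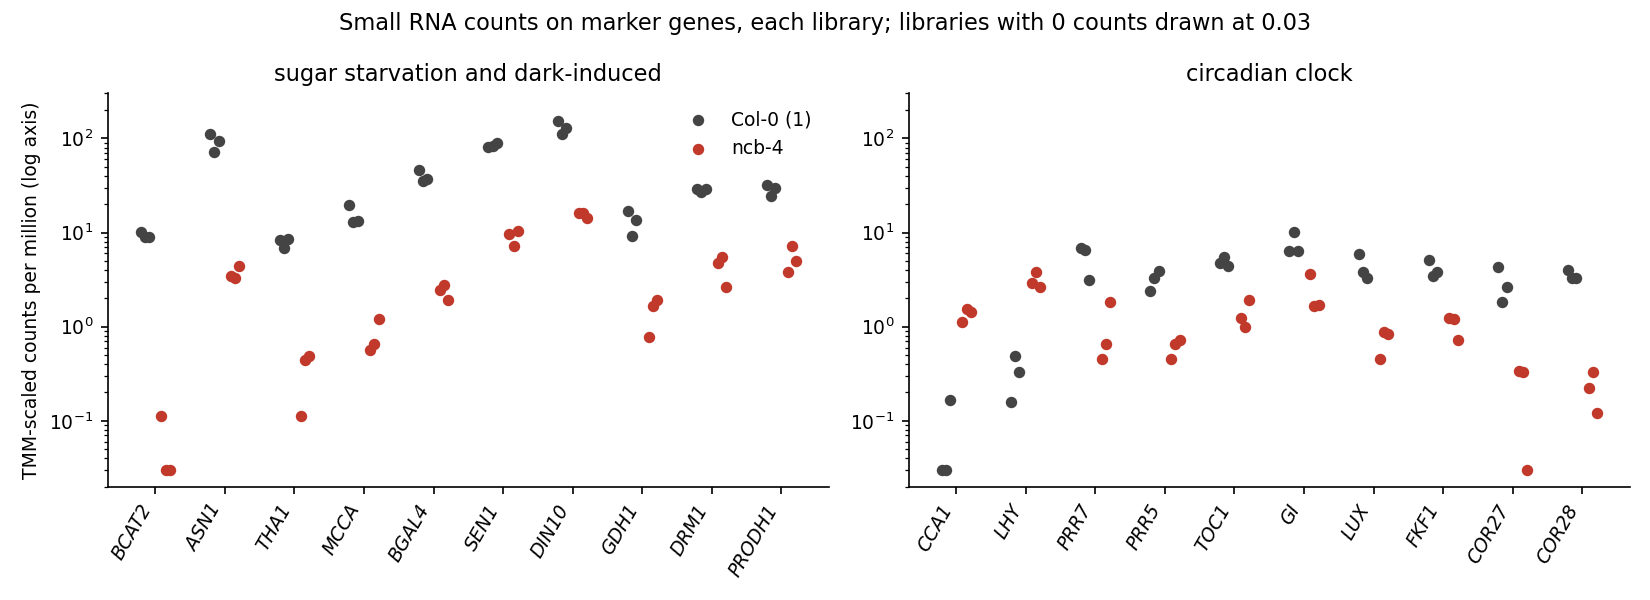
TMM-scaled counts per 1000000 (RPM, log axis) of 10 genes of the sugar starvation list (left) and 10 clock genes (right) in each library of Col-0 (1) and *ncb-4*, with 0 counts drawn at 0.03 RPM. Points are libraries. The groups do not overlap in any of these genes, and of the genes shown *CCA1* and *LHY* are higher in *ncb-4*.

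The genes with the largest changes up included genes of secondary metabolism and starch. *TT4*, the chalcone synthase at the start of flavonoid synthesis, had 46, 52 and 38 counts in *ncb-4* against 4, 1 and 2 in Col-0 (1), a log2 fold change of 3.71 ± 0.43 (SE, with adjusted p = 3.11e-06), or 13.7-fold higher. It had 1 to 21 counts in the other mutants (2.84 against them, adjusted p = 3.58e-08). *UGT78D1*, a flavonol glycosyltransferase, was the only other tested gene of 12 listed and was up, with 14, 14 and 11 counts against 4, 1 and 1 (2.13, adjusted p = 0.0129), a call lost without replicate 2 or 3 of Col-0 (1) or replicate 1 or 2 of *ncb-4* (adjusted p up to 0.0747). *PAP1* (MYB75), a factor of anthocyanin synthesis and a target of TAS4 siRNAs, was up by 1.46 (14, 13 and 13 counts against 5, 2 and 3, adjusted p = 0.0453), a call lost in every fit without 1 library.

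*CYP79F1*, a cytochrome P450 of aliphatic glucosinolate synthesis, had 30, 26 and 17 counts against 0, 0 and 1. The ratio was 51.2 (95% counting interval 8.90 to 2049, adjusted p = 2.72e-05). Of 8 tested genes of 17 in the aliphatic glucosinolate pathway, chosen after the values were seen, 5 were up and 0 down, with a median of 1.62, beside 3.57% up of protein-coding genes. With a list chosen in this way, the contrast is a description and not a test. The others up were *IMD1* (IPMDH1) and *BCAT4* of side-chain elongation (3.20 and 1.84) and *UGT74B1* and *CYP83A1* of the core pathway (2.89 and 1.40). The call of *BCAT4* was lost without replicate 1 or 2 of Col-0 (1) or replicate 1 of *ncb-4* (adjusted p up to 0.103), and that of *CYP83A1* without replicate 1 or 2 of Col-0 (1) or replicate 2 or 3 of *ncb-4* (adjusted p up to 0.121). All 8 tested genes had every *ncb-4* library above every Col-0 (1) library in cpm, as had 53.8% of all genes tested, and 2 were higher than in the other 3 mutants. *CYP79F1* had 3 to 21 counts there and 5 to 13 in Col-0 (2), above the 0 to 1 of Col-0 (1).

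Starch genes moved in both directions. Of a list of 16, chosen after the values were seen, 12 were tested, 2 up and 3 down (median -0.60). Over all protein-coding genes tested, 3.57% were up and 11.9% down, and this contrast is also a description and not a test. *GBSS1*, the starch synthase that makes amylose, had 19, 19 and 14 counts against 0, 2 and 0, a ratio of 18.2 (95% counting interval 4.80 to 155, adjusted p = 0.000491), and 0 to 4 in the other mutants. *CT-BMY* (BAM3), the chloroplast beta-amylase of night-time breakdown, had 72, 62 and 56 against 2, 14 and 5 (2.64 ± 0.37, adjusted p = 2.97e-05), and 5 to 15 in the other mutants, although 25.2% of its bases overlap another gene. *SEX1* (GWD1), the glucan, water dikinase that starts breakdown, had 43, 37 and 49 against 177, 115 and 86 (-2.05 ± 0.23, adjusted p = 1.75e-06), and *AMY3* and *PWD* fell by 1.95 and 1.10. *PWD* (*AT5G26570*) was under the threshold of size without replicate 2 of Col-0 (1) (-0.98) or replicate 3 of *ncb-4* (-0.87).

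Of the 10 protein-coding genes with the largest changes up, 2 had no counts in Col-0 (1). *AT1G23645*, of unknown function (chr1:8369097-8370340), had 19, 13 and 18 counts in *ncb-4* and 0 in each of the other 15 libraries of the 6 groups, at least 3.91-fold higher against a floor of 3 counts per library (adjusted p = 0.000107). *AT5G43755*, a gene of a reverse transcriptase-like protein, had 25, 24 and 21 counts against 0, 0 and 0, at least 5.45-fold higher, but 21, 32 and 39 counts in Col-0 (2) and 10 to 30 in *lsm1a lsm1b*. Its difference from Col-0 (2) was of the other sign (-0.79, adjusted p = 0.0299). *PCC1*, a gene known from pathogen and clock responses, had 16, 19 and 9 counts against 1, 0 and 1, and its neighbour *AT3G22235*, of a cysteine-rich stress tolerance protein, 25, 17 and 17 against 2, 0 and 1. Their ratios were 15.4 (95% counting interval 4.02 to 131) and 13.8 (4.49 to 68.8). *AT2G25510* had 44, 49 and 39 counts against 5, 2 and 0 (3.67 ± 0.48), and *AT1G75945* 20, 31 and 22 against 1, 1 and 1 (ratio 17.1, interval 5.61 to 84.6), and neither has an annotated function. All of these except *AT5G43755* were also up against Col-0 (2). All were higher than the mean of the other 3 mutants, although *AT5G43755* overlapped with *lsm1a lsm1b* in counts.

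Of the 10 protein-coding genes named for the largest changes down, 2 were neighbours on chromosome 3. *AT3G44570* (chr3:16158405-16159835), annotated as a retrotransposon protein, had 33, 44 and 36 counts in *ncb-4* against 1446, 1555 and 1608 in Col-0 (1), and *AT3G44580* (chr3:16160338-16161837) 137, 137 and 103 against 1692, 1685 and 1728. The log2 fold changes were -5.86 ± 0.17 (SE, with adjusted p = 1.95e-15) and -4.27 ± 0.15 (adjusted p = 4.05e-14), or 58.3-fold and 19.4-fold lower. No other library of the 6 groups was low at them: the other mutants had 2379 to 3865 counts and Col-0 (2) 1769 to 2840. The genes on either side had at most 12 counts in any of the 18 libraries.

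At a second locus of chromosome 3, the non-coding genes *AT3G01835* and *AT3G01845* and the gene *AT3G06435* between chr3:1966225-1970946 were lower in *ncb-4* and higher in the other mutants than in Col-0 (1). *AT3G01835* had 1989, 1817 and 2115 counts in *ncb-4* against 4408, 4245 and 8912 in Col-0 (1) (-2.08 ± 0.22, adjusted p = 8.33e-07), and 11751 to 26205 in the other mutants. *AT3G01845* had 941, 918 and 954 against 2035, 1809 and 3555 (-1.91 ± 0.20), and *AT3G06435* 2676, 2637 and 2424 against 6391, 5703 and 10108 (-2.04 ± 0.18). Replicate 3 of Col-0 (1) was highest in all 3, and the groups did not overlap. The pseudogenes on either side, *AT3G06433* and *AT3G06437*, were not called (0.03 and -0.07). *AT3G06435* was chosen after its values were seen.

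**Figure D4:**
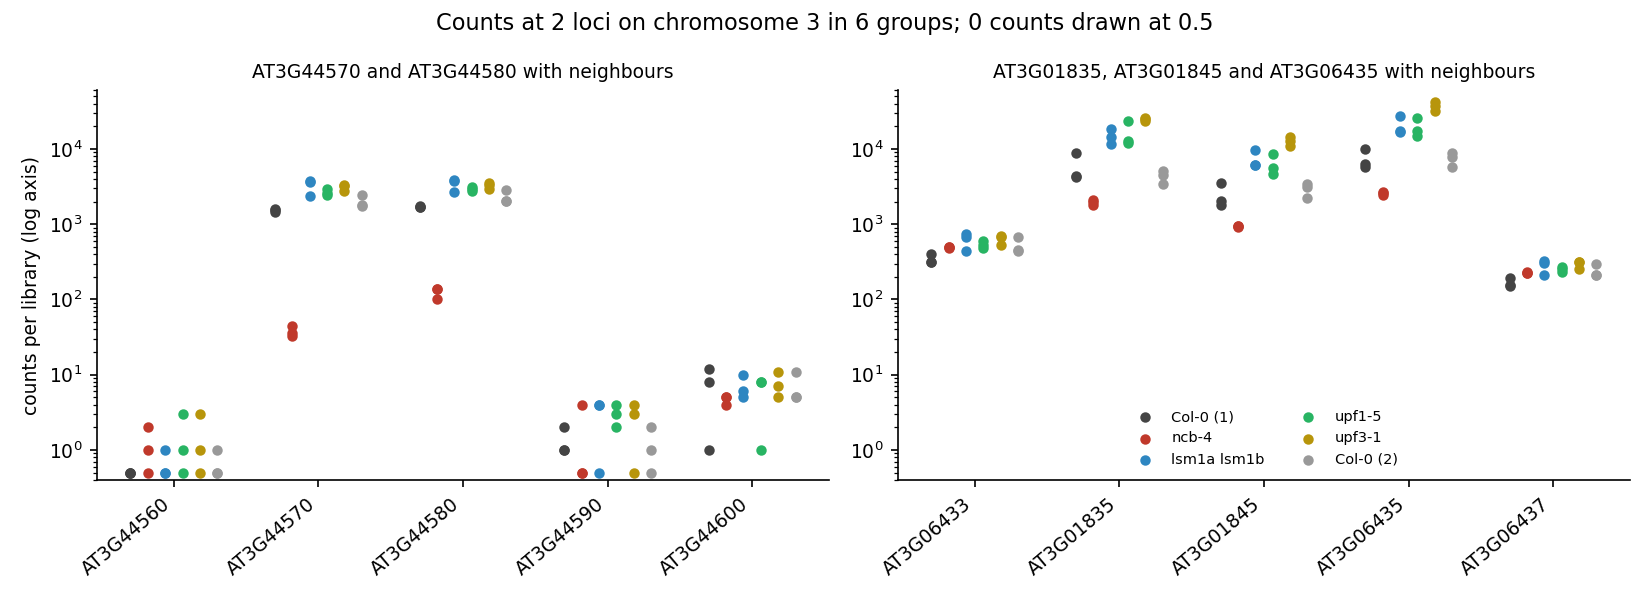
Counts per library (log axis, 0 drawn at 0.5) at the genes of both loci on chromosome 3, in the order of their position, with neighbours. Points are libraries of 6 groups. *AT3G44570* and *AT3G44580* have 33 to 137 counts in *ncb-4* and at least 1446 in every other library, and *AT3G01835*, *AT3G01845* and *AT3G06435* are lowest in *ncb-4*.

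Among other protein-coding genes down, *BCB*, a blue copper-binding protein, had 4, 8 and 0 counts against 76, 45 and 32 (-4.13 ± 0.47, adjusted p = 2.70e-06), and 16 to 66 in the other mutants. *AT5G24220*, a lipase-like gene, had 3, 0 and 0 counts against 17, 23 and 24, a ratio of 30.4 (95% counting interval 9.95 to 151), and *GLYI4*, of the glyoxalase family, 2, 0 and 2 against 15, 11 and 24 (-4.01 ± 0.63). The *AT5G24220* difference was not called against the other mutants (-2.33, adjusted p = 0.0797).

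Non-coding RNA genes were among the largest changes in both directions. *AT4G05605* (chr4:5634932-5635365) had 17, 38 and 22 counts in *ncb-4* against 0, 0 and 0 in Col-0 (1), at least 5.97-fold higher (adjusted p = 2.72e-05), and at most 2 counts in any other library of the 5 groups. *AT2G06995* had 62, 73 and 73 counts against 1, 2 and 2 (4.78 ± 0.39, adjusted p = 2.28e-08), but 36, 65 and 72 in Col-0 (2), so that its level differed between the wild types. *AT2G30945* had 10, 18 and 12 counts against 0, 2 and 2 (2.72, adjusted p = 0.00613). On the down side, *AT1G06723* had 1, 5 and 4 counts against 66, 54 and 62 (-4.64 ± 0.35, adjusted p = 7.58e-09), and 24 to 94 in the other mutants. *AT5G18255* had 0, 0 and 1 counts against 38, 13 and 17, a ratio of 97.0 (95% counting interval 16.8 to 3886), and 58.5% of it overlaps another gene.

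Genes of the small RNA and Cajal body machineries had few counts and few calls. Of 23 genes of Cajal body, snRNP and snoRNP proteins, 3 were tested and 1 was down: *U1-70K*, a U1 snRNP protein, with 11, 9 and 7 counts against 18, 12 and 12 (-1.14, adjusted p = 0.0492). This call was lost in every fit without 1 library and under scaling by reads sequenced. Of 25 genes of RNA-directed DNA methylation 1 was tested and 0 called, and of 16 genes of miRNA and siRNA machinery 3 were tested and 0 called. *AGO2*, an Argonaute protein of antiviral defence, had 2348, 2609 and 2652 counts against 1101, 1327 and 1262 (0.53 ± 0.14, adjusted p = 0.00783), a difference under the threshold of size. Of 13 miRNA targets with secondary siRNAs and known sources of mRNA-derived siRNAs, 8 were tested and 1 was up, the auxin receptor gene *AFB2*, with 90, 83 and 97 counts against 27, 37 and 30 (1.01 ± 0.21, adjusted p = 0.00142), which was under the threshold of size without replicate 1 or 3 of Col-0 (1) or replicate 3 of *ncb-4* (down to 0.89). Of 16 TAS loci and targets, 8 were in the counts, 3 were tested and *PAP1* was the 1 called. None of 15 genes of salicylic acid defence passed the filter. The TAS transcripts themselves are not analysed here.

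By product, several large classes had more calls down than up on the TMM scale, beside a background of 3.57% up and 11.9% down of protein-coding genes. Of 269 protein kinases 4 were up and 28 down, of 157 transcription factors 4 and 14, of 151 ribosomal proteins 0 and 8, of 63 splicing and RNA-binding proteins 1 and 9, of 68 pentatricopeptide repeat proteins 3 and 9, and of 18 histones 0 and 5. Under scaling by reads sequenced, protein-coding genes as a whole turned to more calls up, with 14.8% up and 4.44% down. Most of these classes turned with them, with 29 kinases up and 11 down, 27 and 2 transcription factors and 8 and 2 ribosomal proteins. Pentatricopeptide repeat proteins had 23 up and 2 down, splicing and RNA-binding proteins 3 and 4 and histones 1 and 2. Cytochromes P450 and glycosyltransferases had more calls up than down, with 5 up and 2 down of 40 and 5 up and 1 down of 32. Scaled by reads sequenced, they had 12 up and 0 down and 14 up and 0 down. On the TMM scale, none of 47 immune receptors of the NLR family was called in either direction, and all 47 lay between -0.96 and 1.33. Scaled by reads sequenced, 9 of them were up and 0 down (median 0.33). Of 49 photosystem, antenna and Rubisco genes 2 were up and 1 down against Col-0 (1), while 13 were higher than in the other 3 mutants, and of 78 F-box genes 2 were up and 7 down, while 15 were higher than in those mutants, beside 4.28% of all protein-coding genes tested there.

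Part of the called genes were neighbours. Of 994 nuclear genes called, 277 lay in 124 runs of genes within 10 kb of each other, 80 runs all down, 22 all up and 22 mixed. The same count was not made for other genes tested, so these numbers do not show an excess of neighbours. More genes were called down than up to begin with (686 and 316). The longest, chr1:10277748-10309220, held 7 genes down: *AT1G29370*, *COR314-TM2*, *ML5* and 4 snoRNA genes, of which AtU51a and AtU51b had nearly the same counts (180, 199 and 169, and 177, 199 and 169). None of these 7 calls was made under scaling by reads sequenced. Only *ML5* and AtU33b had no overlap of the groups in cpm and kept the call in all 6 fits without 1 library. *COR314-TM2* kept it in 2 of them and AtsnoR4b in 3. A run of 6 germin-like genes down at chr5:15657697-15693735 was of related sequences with similar counts, from 6 to 30 in *ncb-4* and 12 to 45 in Col-0 (1), which overlapped. Each of these 6 calls was kept in only 2 to 4 of the 6 fits without 1 library, and none was made under scaling by reads sequenced. At chr1:24699868-24721663, *BGLU21* and *BGLU22*, a pair of beta-glucosidases of scopolin breakdown, *AT1G66290* and the non-coding *AT1G08833* were all up by 1.01 to 1.27. *AT1G08833* had 3109, 3741 and 3659 counts against 1249, 1218 and 1195 (adjusted p = 1.50e-05), a call kept in 2 of the 6 fits without 1 library and otherwise just under the threshold of size (down to 0.94). A convergent protein-coding gene within 400 bp was found for 31.7% of the protein-coding genes up and 33.0% of those down, beside 29.0% of those tested. Of the called genes, 13 had the same counts as another gene in every library.

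The differences from Col-0 (1) were set beside those from the other mutants, in a fit of all 15 libraries of the set. There, 356 of 11813 genes were higher in *ncb-4* than in the mean of the other 3 mutants (3.01%) and 236 lower (2.00%). Both comparisons use the *ncb-4* libraries, so their calls are not independent. Of the 183 protein-coding genes up, 100 were also higher than in the other mutants, and of the 612 down 117 were also lower and 2 were higher. Of the 106 pseudogenes and transposable elements up, 4 were also higher. No snRNA gene was called in this comparison, and 7 of the 15 tRNA genes up were also higher. Against Col-0 (2), 631 of 9595 genes were up (6.58%) and 1119 down (11.7%), and 166 of the 316 genes up and 432 of the 686 genes down had the same call.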

How the data were processed

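Small RNA-seq counts of 3 *ncb-4* and 3 Col-0 (1) libraries were compared, labelled as biological replicates, with 9 libraries of other mutants and 3 of Col-0 (2) beside them. The deposited values are raw counts that the authors made per Araport11 gene. Adapters were removed with cutadapt 1.9, reads were mapped without mismatches to TAIR10 with Bowtie 1.0.0, and counted on exons with HTSeq 0.6.0, as the methods and the submitters' processing notes give. Reads at several places were counted at each, and reads that fit more places than the mapping limit were dropped. Reads in overlapping genes were left out, all read lengths were kept, and the strand setting of these counts is not given in the sources used here. Counts of overlapping genes and of near-identical copies are therefore uncertain. Of 37184 genes counted, 36899 matched the TAIR10.1 annotation of RefSeq, which gave classes, positions and symbols, and 285 organelle genes did not.

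edgeR 4.0.16 in R 4.3.3 scaled the counts by TMM, removed low genes with filterByExpr and tested the rest by quasi-likelihood. p-values were adjusted after Benjamini-Hochberg across every gene tested, and calls needed an adjusted p below 0.05 with a log2 fold change above 1 or below -1. The SE shown is approximate, the size of the log2 fold change over the root of F. Effective library sizes after TMM were 8296984 to 9092735 in *ncb-4* and 6076783 to 6303126 in Col-0 (1), or 1.25 and 0.791 times the counts on genes, so 3 counts, used as the floor per library for a group at 0, are 0.330 to 0.362 and 0.476 to 0.494 RPM. Ratios of genes with 1 to 3 counts in a group have exact 95% counting intervals. Reads carry no molecular identifiers, so intervals and floors cover counting error only. *ncb-4* was also compared with the mean of the other 3 mutants in 1 fit of 15 libraries. Class shares were compared by exact permutation.

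Gene lists, classes and the rule for named genes were chosen with earlier results of these data known, and the lists of sugar starvation, clock, flavonoid, glucosinolate and starch genes after the values were seen. Named by the rule were the coilin gene, in each direction the 10 protein-coding genes, 4 pseudogenes or transposable elements and 4 non-coding RNA genes with the largest change among those called without overlap in cpm, and called members of the other lists. snoRNA, snRNA and tRNA genes beyond these, and genes of the lists and loci, were chosen after their values were seen. Alternatives were other scalings and filters, DESeq2 1.42.0, a replicate block, Col-0 (2), each library left out, and 2 alternatives added after seeing the data: genes without overlap, and class shares against the other mutants. The scripts were tested on simulated counts. Python 3.11.15, numpy 2.4.6, pandas 2.3.3, scipy 1.17.1 and matplotlib 3.10.9 were used.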

Additional observations from a re-analysis of the deposited data

How the results depend on the processing

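The main counts depended most on the scaling, the control and the tool. With library sizes from the sequencing depth table, 1833 genes were up and 239 down, of protein-coding genes 762 and 228, of pseudogenes and transposable elements 970 and 2, and of snoRNA genes 4 and 2. With Col-0 (2) as control, 631 genes were up and 1119 down, 969 protein-coding genes were down, 338 pseudogenes and transposable elements were up and 3 snoRNA genes were up. DESeq2 with a beta prior called 203 genes up and 371 down, 111 and 326 protein-coding genes, 4 pseudogenes and transposable elements down and 27 snoRNA genes down. DESeq2 without a prior called 399 genes down and 117 and 346 protein-coding genes up and down. It made the same call for 187 of the 316 genes up in edgeR and 370 of the 686 down. Against *lsm1a lsm1b* alone, 370 genes were lower in *ncb-4*. The cause of these differences was not tested.

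With 1 library left out, genes up ranged from 246 to 340 and down from 606 to 686, protein-coding genes from 141 to 185 and from 517 to 601, and pseudogenes and transposable elements from 76 to 140 and from 7 to 10. snoRNA genes down ranged from 28, without replicate 1 of Col-0 (1), to 57, and up from 0 to 0. Genes higher than in the other mutants ranged from 305 to 353 and lower from 176 to 186. These totals hide changes of members. Of the 316 genes up, 122 kept the call in all 6 fits without 1 library, and of the 686 down 378. For protein-coding genes these were 78 of 183 up and 331 of 612 down. They were 30 of 106 for pseudogenes and transposable elements up and 25 of 43 for snoRNA genes down.

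The replicate numbers did not pair the samples: deviations of same-numbered libraries correlated at 0.109, 0.018 and 0.083. With the replicate block, 305 genes were up and 686 down (protein-coding 180 and 609, pseudogenes and transposable elements 105 and 8, snoRNA 0 and 42), and 359 were higher and 227 lower than in the other mutants.

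The ratio of class shares was on the other side of 1 against the 9 libraries of the other mutants for protein-coding genes (0.971), pseudogenes and transposable elements (0.945), other non-coding RNA (0.770), snRNA (0.902) and organelle genes (1.05). With Col-0 (2), the sign changed for *AT5G43755* (-0.79), *AT2G12560* (-0.11) and *AT2G06995* (-0.13). Of 39 genes named by the rule and tested, 36 kept their call under the depth table and 34 with either DESeq2 fit. With Col-0 (2) as control 25 kept it, 7 lost it and 3 changed sign, and the rest were not tested there. Genes with few counts are limited by depth.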
